A study of Mus musculus with 20 samples.

Results

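Hypoxanthine-guanine phosphoribosyltransferase (Hprt) and the enzymes that make purines were followed across 20 mouse samples measured on Illumina bead arrays, in 5 groups of 4 arrays. The list held 10 genes, namely Hprt, Aprt, Ppat, Gart, Pfas, Paics, Adsl, Atic, Impdh2 and Gmps, and members were the probes that carry one of these symbols in the platform annotation. Of the 10 listed genes, 7 were measured by 12 probes, among 16593 genes measured in all. No probe used here carried the symbols Pfas, Impdh2 or Gmps, so the expression of these genes was not analysed. Hprt was chosen by its own measured level in these arrays, so its values are given as a description with no test. The other genes were listed for their place in purine metabolism.

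Each array was hybridised with labelled RNA made from 500 ng of total RNA. The group sFB-protein-iPS is labelled induced pluripotent stem (iPS) cells of mouse, that is, somatic cells brought to a state like that of embryonic stem cells. E14-mES, GFPoct4 and C57-mES are labelled as embryonic stem (ES) cells in their cell type field, and for GFPoct4 that field is the only label that says so. The group titled FVB-sFB also carries an ES cell label in that field, against its title and the series title, which speaks of skin fibroblasts. The titles hold the mouse strain names FVB, for FVB-sFB, and C57, for C57-mES, and those of the other groups name no strain. Strain therefore cannot be told apart from group in any comparison. The title GFPoct4 holds the words GFP and oct4, and what they refer to was not examined here. Beyond the titles, the labels used here give no genotype, allele, sex, age, passage or treatment for any group. They do not say whether a line is 1 clone. For the iPS cells the title has the words sFB and protein, and nothing further was given on how they were made. E14 is a long-used mouse ES line, and, as background, derivatives of it that lack Hprt activity are in wide use. The labels do not say which derivative was grown here, and its part in the results was not tested. Nothing says that the 4 arrays of a group came from separate cultures, so the p-values below measure the spread between these arrays, which may be technical.

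The labels were set against marker genes. All 8 markers of pluripotent cells, among them Pou5f1, Nanog and Esrrb, lay above background on every array of sFB-protein-iPS, E14-mES, GFPoct4 and C57-mES, against 1 of 8 on every FVB-sFB array. The summed linear level of these 8 genes was 132000 to 138000 in sFB-protein-iPS, 122000 to 131000 in E14-mES, 126000 to 149000 in GFPoct4, 114000 to 122000 in C57-mES and 794 to 834 in FVB-sFB. All 8 fibroblast markers, collagens and decorin among them, lay above background on every FVB-sFB array. The FVB-sFB arrays thus carried the markers of the title and not those of the cell type field, and the title is used for this group. Of the markers of other cell types, 2 of 6 for keratinocytes, 1 of 4 for leukocytes and 1 of 5 for endothelium lay above background on every FVB-sFB array. Among them were Ivl at 8.64 and Cd14 at 8.91, against means of 6.17 to 6.30 and 6.14 to 6.99 in the pluripotent groups. Krt5, Krt14, Ptprc and Cdh5 lay below background on every FVB-sFB array. Median raw intensity was 94.42 to 178.73 over the 20 arrays, with the top value on E14-mES array 4, and replicates of a group correlated at 0.981 to 0.997.

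Cells obtain purine nucleotides by a pair of routes. Salvage recycles free bases onto the activated sugar PRPP: HPRT takes hypoxanthine and guanine, and APRT takes adenine. De novo synthesis builds the ring on PRPP step by step, from PPAT, the first committed enzyme, through GART, PFAS, PAICS, ADSL and ATIC to inosine monophosphate, after which IMPDH2 and GMPS lead to guanine nucleotides. Hprt lies on the X chromosome, is widely used as a reference gene for normalising expression, and is the classical target of selection in ES cells, since cells without it survive 6-thioguanine and die in HAT medium.

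The sequences just upstream of the genes come first because the results turn on Hprt, Gart and Adsl. Against FVB-sFB, Gart and Adsl were both higher in every pluripotent group, while Hprt was lower in all of them but C57-mES. Promoter windows from RefSeq, build GRCm38.p6, were matched by symbol for 9 of the 10 listed genes. The 250 bases before the start of Hprt (chrX:52987828-52988077, plus strand), of Gart (chr16:91646973-91647222, minus strand) and of Adsl (chr15:80948240-80948489, plus strand) are given here on the strand of the gene, with the GC box (GGGCGG, or CCGCCC where it lies on the other strand) in capitals.
Hprt: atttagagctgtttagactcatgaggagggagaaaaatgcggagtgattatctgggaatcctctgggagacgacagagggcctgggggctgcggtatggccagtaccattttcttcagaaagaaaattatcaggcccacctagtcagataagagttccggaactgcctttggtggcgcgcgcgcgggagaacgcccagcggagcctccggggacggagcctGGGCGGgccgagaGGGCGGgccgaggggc
Gart: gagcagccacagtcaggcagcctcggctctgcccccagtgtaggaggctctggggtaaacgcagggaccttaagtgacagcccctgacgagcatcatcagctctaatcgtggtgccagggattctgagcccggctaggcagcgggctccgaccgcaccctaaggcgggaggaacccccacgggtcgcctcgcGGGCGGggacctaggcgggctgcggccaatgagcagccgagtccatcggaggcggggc
Adsl: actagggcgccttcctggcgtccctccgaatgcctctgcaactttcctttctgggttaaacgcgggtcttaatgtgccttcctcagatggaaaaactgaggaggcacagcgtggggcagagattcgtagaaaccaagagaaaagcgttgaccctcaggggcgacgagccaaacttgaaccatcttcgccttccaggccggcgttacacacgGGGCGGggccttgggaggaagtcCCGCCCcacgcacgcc
The GC box, searched on both strands, was found in all 9 member windows and in 32.7% of 32851 windows of the same length, and Hprt and Adsl held 2 each against 1 in Gart. The CCAAT box was found in 3 of the 9 member windows and in 33.8% of all windows. GC content was 59.6% for Hprt, 68% for Gart and 59.2% for Adsl.

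The E-box CACGTG, the letters that Myc and its relatives bind, was found in 3 of the 9 member windows and in 6.02% of all windows. It is shown in capitals with its neighbouring bases for the 3 genes that hold it, all on the plus strand: Paics (chr5:76951087-76951116), Atic (chr1:71557126-71557155) and Impdh2 (chr9:108560314-108560343).
Paics: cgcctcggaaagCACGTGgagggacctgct
Atic: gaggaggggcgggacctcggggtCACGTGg
Impdh2: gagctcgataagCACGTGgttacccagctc
The match began 203 bases before the start of Paics, 7 before that of Atic and 110 before that of Impdh2. The windows of Hprt, Aprt, Ppat, Gart, Adsl and Gmps did not hold these letters. A match is a description of the letters only.

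Hprt was bright in C57-mES and FVB-sFB, dim in GFPoct4 and near background in sFB-protein-iPS and E14-mES. Values are normalised log2 intensities, in which a difference of 1 is a 2-fold change. The background level of an array, 6.69 to 6.85, was taken as the 95th percentile of the signal of 1305 odorant and pheromone receptor probes, which were picked for this use with the values already known. On the brightest probe, ILMN_2704499, the 4 sFB-protein-iPS arrays had 6.55, 6.26, 6.28 and 7.02, and 1 of these 4 lay above background. The E14-mES arrays had 6.90, 6.92, 6.58 and 6.99, of which 3 lay above background. These 2 groups overlapped, and their lowest arrays could not be told from a probe with no signal.

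The GFPoct4 arrays had 8.96, 9.0, 8.92 and 8.93 on the same probe, all above background. The C57-mES arrays had 13.36, 13.11, 13.34 and 13.18, and the FVB-sFB arrays had 12.68, 12.49, 12.46 and 12.54. The order of the means was therefore sFB-protein-iPS 6.53 ± 0.35, E14-mES 6.85 ± 0.18, GFPoct4 8.95 ± 0.04, FVB-sFB 12.54 ± 0.10 and C57-mES 13.25 ± 0.13 (SD, n = 4 each). Between the first pair in this order the arrays overlapped, while between each of the other neighbours there was no overlap. In bulk RNA of this kind, fewer cells that hold a transcript and less transcript per cell cannot be told apart.

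**Figure D1:**
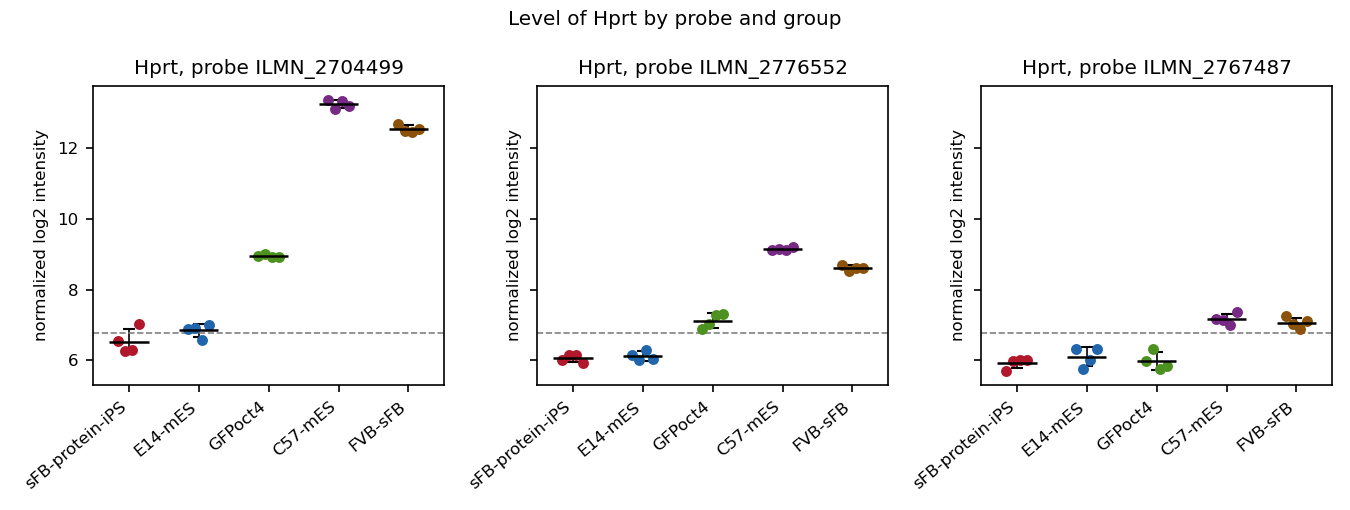
Normalised log2 intensity of Hprt on each of its 3 probes (1 panel a probe), with the 5 groups along the x axis. Points are arrays, horizontal bars the mean, error bars the SD (n = 4) and the dashed line the mean background level; on ILMN_2704499 the sFB-protein-iPS and E14-mES points lie between 6.26 and 7.02, GFPoct4 between 8.92 and 9.0, and C57-mES and FVB-sFB between 12.46 and 13.36.

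Set against FVB-sFB on this probe, Hprt was lower by 6.02 ± 0.13 on the log2 scale in sFB-protein-iPS (SE of the fit), which is 64.7-fold as measured with 1 of 4 dim arrays above background. In E14-mES the log2 difference from FVB-sFB was -5.69 ± 0.13, or 51.8-fold lower with 3 of 4 dim arrays above background. In GFPoct4 it was -3.59 ± 0.13, or 12-fold lower. In C57-mES it was 0.71 ± 0.13, or 1.63-fold higher, so that only this pluripotent line of the 4 stood at or above the FVB-sFB level.

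Among the pluripotent groups, sFB-protein-iPS stood 106-fold below C57-mES as measured (log2 difference -6.72 ± 0.13) and 5.38-fold below GFPoct4 (-2.43 ± 0.13), with 1 of 4 sFB-protein-iPS arrays above background. With the arrays below background raised to their background level these folds were 82.5 and 4.21. E14-mES, with 3 of 4 arrays above background, stood 84.5-fold below C57-mES as measured (-6.40 ± 0.13) and 4.31-fold below GFPoct4 (-2.11 ± 0.13). GFPoct4 stood 19.6-fold below C57-mES (-4.29 ± 0.13). Only the difference between sFB-protein-iPS and E14-mES, -0.32 ± 0.13, was small, and it lay near background on both sides.

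The other 2 Hprt probes gave the same order of groups wherever they rose above background. On ILMN_2776552 the sFB-protein-iPS arrays had 6.01, 6.15, 6.14 and 5.92, and the E14-mES arrays 6.15, 6.0, 6.30 and 6.05, with 0 of 8 above background. The GFPoct4 arrays had 6.88, 7.02, 7.28 and 7.32, the C57-mES arrays 9.11, 9.14, 9.11 and 9.20, and the FVB-sFB arrays 8.70, 8.52, 8.60 and 8.62, all above background. The groups above background did not overlap on this probe either.

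As lower bounds from that probe, set against the background level of the dim arrays, Hprt was at least 3.41-fold lower in sFB-protein-iPS and at least 3.66-fold lower in E14-mES than in FVB-sFB. Against C57-mES it was at least 4.92-fold lower in sFB-protein-iPS and at least 5.27-fold lower in E14-mES. GFPoct4 was 2.80-fold below FVB-sFB and 4.03-fold below C57-mES. The highest group, C57-mES, had a mean of 9.14 ± 0.04 on this probe.

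The faintest probe, ILMN_2767487, lay below background on all 12 arrays of sFB-protein-iPS, E14-mES and GFPoct4, where it ranged over 5.70 to 6.33. It ranged over 6.99 to 7.36 in C57-mES and 6.90 to 7.24 in FVB-sFB, above background on all 8 arrays. Hprt was at least 1.34-fold lower in GFPoct4 than in C57-mES by this probe, and at least 1.17-fold lower in sFB-protein-iPS than in FVB-sFB. All 3 probes thus placed C57-mES and FVB-sFB above the other 3 groups with no overlap of arrays.

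GFPoct4 stood apart from the other pluripotent groups in a marker list as well. The summed linear level of the 8 fibroblast markers was 5220 to 5750 in GFPoct4, against 1060 to 1110 in sFB-protein-iPS, 1060 to 1370 in E14-mES, 1530 to 1770 in C57-mES and 88600 to 98000 in FVB-sFB. Dcn, decorin, weighed most in the GFPoct4 sum. Its mean was 11.71 there, 8.75 in C57-mES, 6.62 in sFB-protein-iPS and 6.34 in E14-mES. C57-mES also had Dcn and Lox above background on all 4 arrays. In GFPoct4 5 of the 8 markers lay above background on every array, while Col1a1 and Col3a1, which encode fibrillar collagen chains, lay below it on every array. The part of other cells in the intermediate Hprt level of GFPoct4 was not tested.

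Few genes of the arrays shared this pattern of groups. Over 16593 genes, 38 (0.229%) had means in C57-mES and FVB-sFB that were both at least 1 log2 unit above the highest of the means in sFB-protein-iPS, E14-mES and GFPoct4. Hprt had the widest such gap, 3.59, with Emb, an adhesion molecule of the immunoglobulin superfamily, next to it. Emb was singled out after its values were seen, and for Hprt the gap is the pattern it was chosen for.

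Aprt, which salvages adenine, was bright in every group and did not share the Hprt pattern. The sFB-protein-iPS arrays had 13.61, 13.66, 13.73 and 13.68. The E14-mES arrays had 13.52, 13.40, 13.55 and 12.76, and the GFPoct4 arrays 13.04, 13.42, 13.42 and 13.37. The C57-mES arrays had 13.59, 13.63, 13.59 and 13.72, against 12.76, 12.81, 12.94 and 13.03 in FVB-sFB. FVB-sFB was lowest, and it overlapped only with E14-mES, through array 4 of that group.

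Relative to FVB-sFB, Aprt differed by 0.78 ± 0.13 log2 in sFB-protein-iPS (limma adjusted p = 8.71e-06), by 0.42 ± 0.13 in E14-mES (0.00668), by 0.43 ± 0.13 in GFPoct4 (0.00634) and by 0.75 ± 0.13 in C57-mES (1.73e-05). A gene is called here where the limma adjusted p over all 16593 genes is under 0.05 and the log2 difference at least 1 in size. Aprt was below that size in all 10 comparisons between groups. Its means spanned 12.89 to 13.67, while those of Hprt spanned 6.53 to 13.25.

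Ppat, the enzyme that commits PRPP to the de novo route, was higher in all 4 pluripotent groups than in FVB-sFB. The sFB-protein-iPS arrays had 10.14, 10.34, 10.37 and 10.42, the E14-mES arrays 10.70, 10.62, 10.79 and 10.99. The GFPoct4 arrays had 10.61, 10.19, 10.30 and 10.16, and the C57-mES arrays 10.57, 10.66, 10.44 and 10.35. The FVB-sFB arrays had 8.56, 8.50, 8.42 and 8.56. Every pluripotent array lay above every FVB-sFB array, and the pluripotent groups lay close together.

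Against FVB-sFB, Ppat rose by 1.80 ± 0.11 log2 in sFB-protein-iPS (3.49-fold, limma adjusted p = 6.8e-14), by 2.26 ± 0.11 in E14-mES (4.80-fold, 5.63e-16), by 1.80 ± 0.11 in GFPoct4 (3.49-fold, 7.29e-14) and by 1.99 ± 0.11 in C57-mES (3.98-fold, 8.21e-15). Among the pluripotent groups none of its 6 differences reached 1. The largest, 0.46 ± 0.11, put E14-mES above GFPoct4 (adjusted p = 0.00239), and the equal difference of -0.46 ± 0.11 put sFB-protein-iPS below E14-mES (0.00107).

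Gart, a single protein that carries out several separate steps of the ring assembly, changed most among the de novo genes. The sFB-protein-iPS arrays had 11.74, 11.68, 11.70 and 11.73, the E14-mES arrays 12.67, 12.88, 12.65 and 13.16, and the GFPoct4 arrays 11.55, 11.84, 11.73 and 11.75. The C57-mES arrays had 12.63, 12.68, 12.60 and 12.43, against 9.68, 9.77, 9.55 and 9.29 in FVB-sFB. On this brightest probe, ILMN_1225226, the pluripotent groups fell into a higher pair, E14-mES with C57-mES, and a lower pair, sFB-protein-iPS with GFPoct4. There was overlap inside each pair and none between them.

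Relative to FVB-sFB, Gart rose by 2.14 ± 0.11 log2 in sFB-protein-iPS (4.4-fold, limma adjusted p = 5.56e-15) and by 3.27 ± 0.11 in E14-mES (9.64-fold, 6.79e-19). It rose by 2.14 ± 0.11 in GFPoct4 (4.42-fold, 5.58e-15) and by 3.01 ± 0.11 in C57-mES (8.07-fold, 4.12e-18). Between pluripotent groups it was the only member called. It fell by 1.13 ± 0.11 in sFB-protein-iPS relative to E14-mES (2.19-fold, adjusted p = 7.49e-09), where 3.81% of all genes were called lower. It was higher by 1.13 ± 0.11 in E14-mES than in GFPoct4 (2.18-fold, 2.97e-08), where 0.759% of all genes were called higher.

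The pairing of groups for Gart on its brightest probe was not that for Hprt: E14-mES, near background for Hprt, and C57-mES, brightest for Hprt, differed by 0.26 ± 0.11 in Gart (limma adjusted p = 0.0746). The second Gart probe, ILMN_2622163, gave 0.77 ± 0.10 for that difference (adjusted p over all probes = 1.03e-06), so the probes disagree on whether E14-mES and C57-mES differ. On this second probe the group means were 10.48 in sFB-protein-iPS, 11.86 in E14-mES, 10.79 in GFPoct4, 11.09 in C57-mES and 8.17 in FVB-sFB. No groups overlapped there, so the pairs were not seen on it. The difference was -0.31 ± 0.10 for sFB-protein-iPS against GFPoct4 (limma adjusted p over all probes = 0.0227). For GFPoct4 against C57-mES it was -0.30 ± 0.10 (0.0242). Both probes placed E14-mES first and FVB-sFB last.

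Paics, which joins a carboxylase and a synthetase step in 1 enzyme and lies head to head with Ppat, was dim on its single probe. The sFB-protein-iPS arrays had 7.14, 7.17, 6.88 and 7.04, the E14-mES arrays 8.13, 7.79, 7.96 and 7.97, and the GFPoct4 arrays 8.03, 7.62, 8.34 and 7.91. The C57-mES arrays had 7.07, 7.14, 6.94 and 7.45, against 6.82, 6.90, 6.84 and 6.62 in FVB-sFB, where 3 of 4 lay above background. E14-mES and GFPoct4 formed the higher pair here, above every array of the other 3 groups.

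Paics rose relative to FVB-sFB by 1.17 ± 0.13 log2 in E14-mES (2.24-fold, limma adjusted p = 1.15e-08) and by 1.18 ± 0.13 in GFPoct4 (2.26-fold, 1.04e-08). It differed by 0.26 ± 0.13 in sFB-protein-iPS (0.0981) and by 0.35 ± 0.13 in C57-mES (0.0231), both under the size for a call. E14-mES stood 0.81 ± 0.13 above C57-mES (adjusted p = 1e-05) and GFPoct4 0.82 ± 0.13 above it (8.1e-06). These folds are on a probe near background, which limits the range a difference can show.

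Adsl, which acts at 2 points of purine synthesis, had 10.49, 10.35, 10.32 and 10.37 in sFB-protein-iPS, 10.45, 10.67, 10.73 and 10.64 in E14-mES and 9.99, 9.92, 9.96 and 9.83 in GFPoct4. The C57-mES arrays had 10.52, 10.49, 10.60 and 10.52, against 8.66, 8.83, 8.79 and 8.89 in FVB-sFB. GFPoct4 was lowest of the pluripotent groups with no overlap, and all of them lay above FVB-sFB. Against FVB-sFB it rose by 1.59 ± 0.08 log2 in sFB-protein-iPS (3.01-fold, limma adjusted p = 5.31e-15), 1.83 ± 0.08 in E14-mES (3.56-fold, 2.57e-16), 1.13 ± 0.08 in GFPoct4 (2.19-fold, 6e-12) and 1.74 ± 0.08 in C57-mES (3.34-fold, 7.94e-16). The GFPoct4 rise fell under the size for a call, to 0.95, with arrays centred on their medians.

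Atic, the enzyme of the last steps to inosine monophosphate, differed least among the de novo genes. On its brightest probe, ILMN_3070951, it had 10.30, 10.50, 10.56 and 10.59 in sFB-protein-iPS, 10.55, 10.67, 10.45 and 10.57 in E14-mES and 10.47, 10.42, 10.22 and 10.11 in GFPoct4. The C57-mES arrays had 11.05, 10.88, 10.82 and 10.92, against 10.17, 10.20, 10.14 and 10.06 in FVB-sFB. C57-mES was highest with no overlap, and the means of all groups, C57-mES included, spanned 0.78 log2 units.

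Relative to FVB-sFB, Atic differed by 0.34 ± 0.09 log2 in sFB-protein-iPS (limma adjusted p = 0.00274), 0.42 ± 0.09 in E14-mES (0.000398), 0.16 ± 0.09 in GFPoct4 (0.154) and 0.78 ± 0.09 in C57-mES (5.9e-08), none of a size to be called. Its other 2 probes differ in the sign for GFPoct4, at 0.04 ± 0.13 on ILMN_2606564 and -0.25 ± 0.11 on ILMN_2606567. For E14-mES they gave 0.11 ± 0.13 and -0.13 ± 0.11, against 0.42 on the brightest probe, so the 3 probes do not settle that difference. For C57-mES they gave 0.80 ± 0.13 and 0.67 ± 0.11, and the 3 probes lay close together there. On all 3 probes C57-mES had the highest mean.

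**Figure D2:**
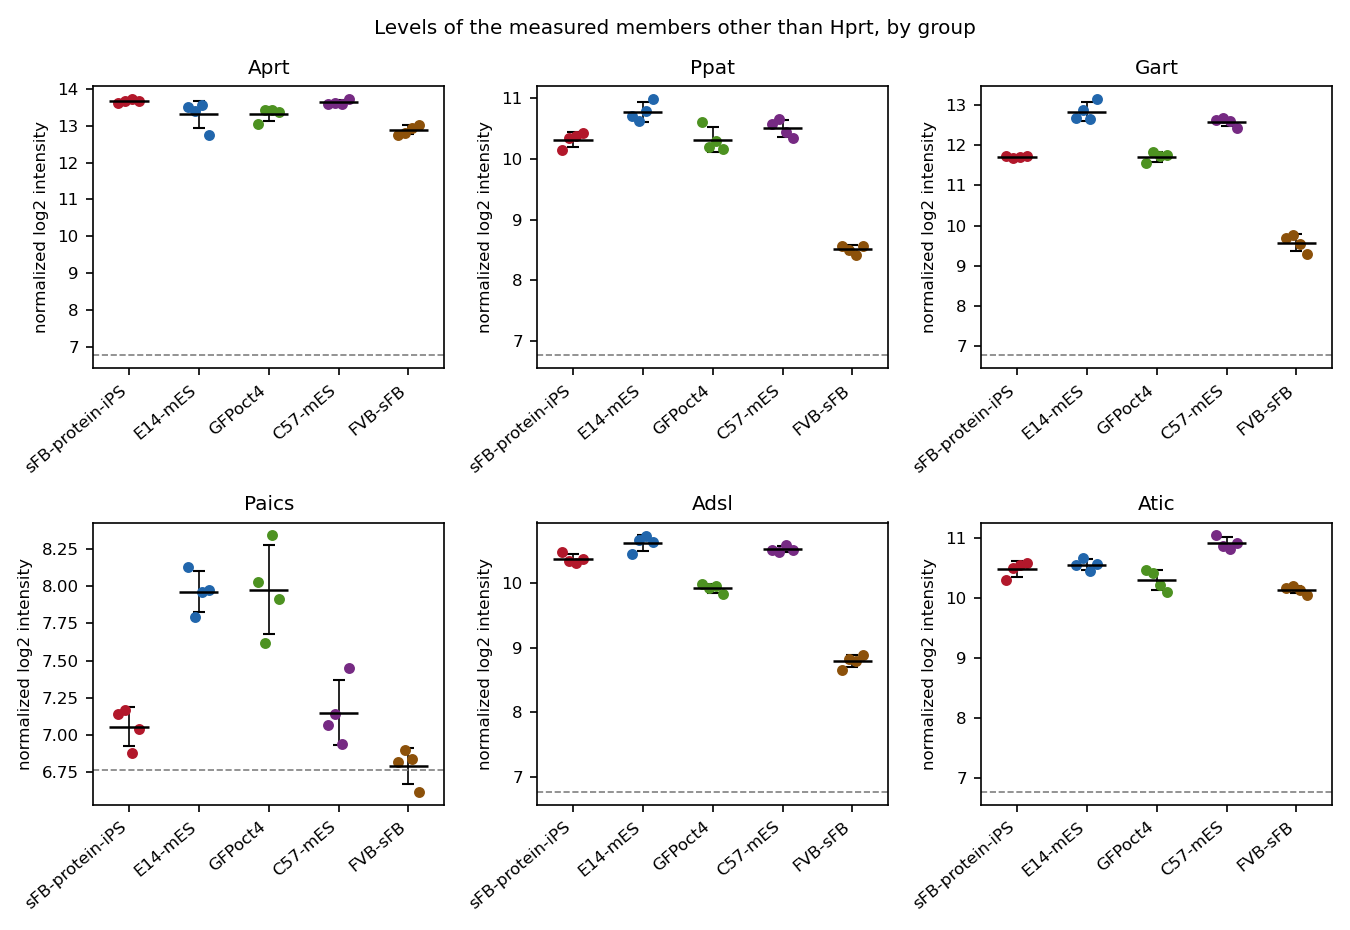
Normalised log2 intensity of the 6 measured members other than Hprt (1 panel a gene, each with its own y axis), with the 5 groups along the x axis. Points are arrays, bars the mean, error bars the SD (n = 4) and the dashed line the mean background level; Ppat, Gart and Adsl lie above FVB-sFB in all 4 pluripotent groups, Paics is between 7.62 and 8.34 in E14-mES and GFPoct4, and Aprt and Atic span less than 1 log2 unit between group means.

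The question of whether salvage and de novo genes follow Hprt was put to the 6 other members over 10 comparisons, which share groups and so are not independent. Against FVB-sFB, Hprt was far lower in sFB-protein-iPS, where 3 of 6 members rose and 0 fell, with 11.7% of all genes called higher and 23.2% called in either direction. In E14-mES 4 of 6 rose, with 13.1% of all genes called higher and 24.6% in either direction. In GFPoct4 4 of 6 rose, with 11.8% called higher and 22.8% in either direction. In C57-mES, where Hprt was 1.63-fold higher, 3 of 6 rose, with 12.3% of all genes called higher and 23.9% in either direction. The median log2 difference of the 6 members was 1.19 in sFB-protein-iPS, 1.5 in E14-mES, 1.15 in GFPoct4 and 1.26 in C57-mES, beside medians of 0.03, 0.00, 0.00 and 0.01 over all genes. On the deposited log2 values, which are not normalised, 1 member was called higher in sFB-protein-iPS and 2 in GFPoct4. Ppat, Gart and Adsl were thus higher, on the normalised values, than in FVB-sFB in the groups with low Hprt and in C57-mES with high Hprt.

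Among the pluripotent groups, the other 6 members differed by less than 1 log2 unit in the widest Hprt contrasts, those against C57-mES. With 6 members, 0 called is near the shares over all genes, so these counts do not set the members apart. Gart in sFB-protein-iPS was called with median centring (-1.11) and on the deposited log2 values (-1.34). The deposited values also called Paics in E14-mES (1.05) and Gart in GFPoct4 (-1.01). In sFB-protein-iPS against C57-mES, with Hprt at -6.72, limma called 0 of 6 members (4.47% of all genes), while 2 passed at an unadjusted p under 0.05, Gart at -0.87 ± 0.11 (adjusted p = 8.02e-07) and Atic at -0.43 ± 0.09 (0.000729). In E14-mES against C57-mES, with Hprt at -6.40, limma called 0 of 6 (7.3% of all genes), and 5 passed at an unadjusted p under 0.05. Of those, Paics, Ppat at 0.27 ± 0.11 (adjusted p = 0.0476) and Atic at -0.36 ± 0.09 (0.00294) kept an adjusted p under 0.05. In GFPoct4 against C57-mES, with Hprt at -4.29, limma called 0 of 6 (7.92% of all genes), and 5 passed at an unadjusted p under 0.05. Adsl, at -0.61 ± 0.08 (limma adjusted p = 1.25e-06), Gart, at -0.87 ± 0.11 (5.07e-07), and Atic, at -0.62 ± 0.09 (5.7e-06), were lower there and Paics higher. The share of all genes at an unadjusted p under 0.05 is not given here or below. Counts at that threshold are therefore a description only.

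In sFB-protein-iPS against GFPoct4, with Hprt at -2.43, limma called 0 of 6 members (6.29% of all genes), and 3 passed at an unadjusted p under 0.05. Paics, at -0.92 ± 0.13 (adjusted p = 2.05e-06), was the nearest to a call, and it passed, at -1.03, when GFPoct4 array 2 was left out. Gart was the single member called in sFB-protein-iPS against E14-mES (6.99% of all genes) and in E14-mES against GFPoct4 (1.96%). In both of these Gart was the higher in E14-mES, while Hprt was close to background there.

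**Figure D3:**
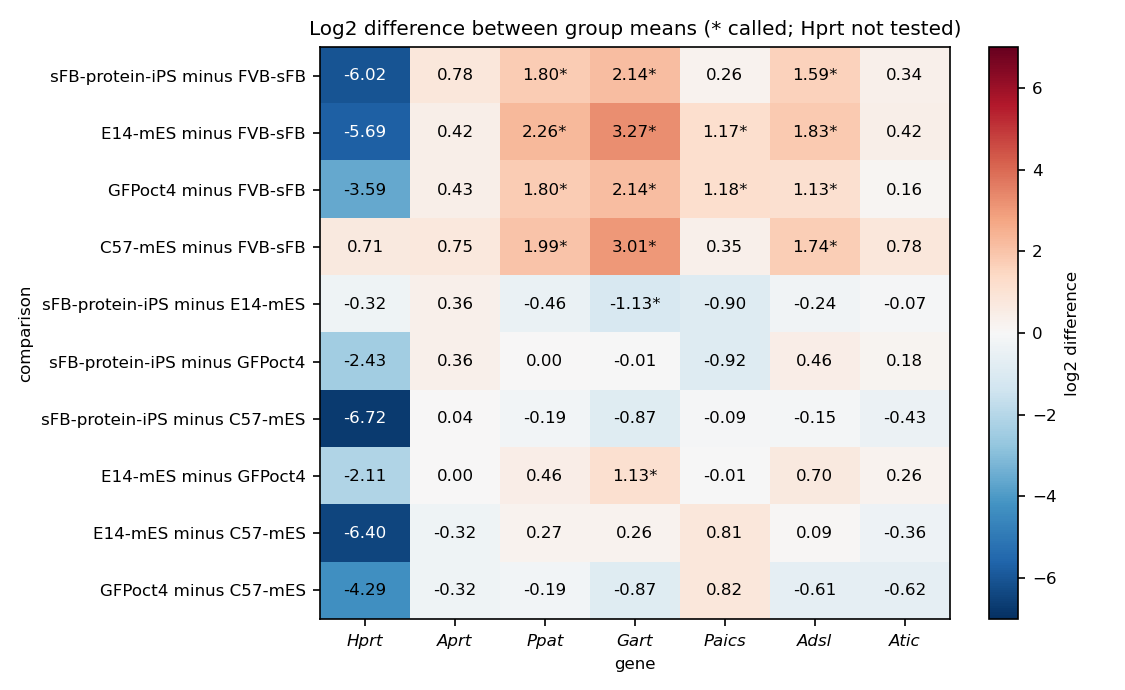
Log2 differences of the 7 measured members in the 10 comparisons between groups, first group minus second, on a colour scale, with the value printed in each cell. The Hprt values run from -6.72 to 0.71, while those of the other 6 members run from -1.13 to 3.27, with the high ones in the comparisons against FVB-sFB.

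The Pearson correlation of each member with Hprt over the 20 arrays, as a description of arrays that share groups, was -0.265 for Aprt, -0.511 for Ppat, -0.380 for Gart, -0.492 for Paics, -0.469 for Adsl and 0.127 for Atic. The arrays fall into separate groups by cell type, so these values chiefly describe the group means. The genes most like Hprt, given further on, were picked by this same correlation, so their values are no yardstick for these 6.

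The wider purine pathway was described from a list of 26 measured genes for interconversion, salvage and breakdown. Against FVB-sFB 1 was called higher and 7 lower in sFB-protein-iPS, 1 and 6 in E14-mES, 0 and 7 in GFPoct4, and 3 and 5 in C57-mES, so 26.9% to 30.8% of the list was called, beside 22.8% to 24.6% of all genes. Against C57-mES 2 were called higher and 2 lower in sFB-protein-iPS, 1 and 4 in E14-mES, and 1 and 4 in GFPoct4. That was 15.4%, 19.2% and 19.2% of the list, beside 4.47%, 7.3% and 7.92% of all genes. On the deposited log2 values the counts in sFB-protein-iPS were 0 and 2. In the same order of groups, Ak4 was called lower in each (-1.12, -1.8 and -1.88) and Ak3 higher in each (1.3, 1.38 and 1.15). Xdh, xanthine oxidoreductase, which ends purine breakdown, lay below background on all 16 pluripotent arrays, with means of 6.10 to 6.29, against 9.64 ± 0.16 in FVB-sFB. It was at least 6.99-fold lower in sFB-protein-iPS than in FVB-sFB (limma adjusted p = 6.88e-20), and at least 7.49-fold lower in E14-mES (1.96e-20), 7.44-fold in GFPoct4 (3.97e-20) and 7.46-fold in C57-mES (3.97e-20).

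Ak1, the adenylate kinase typical of muscle and of other cells with a high energy turnover, also fell in all 4 pluripotent groups relative to FVB-sFB. Its differences were -3.02 ± 0.10 in sFB-protein-iPS, -2.48 ± 0.10 in E14-mES, -3.26 ± 0.10 in GFPoct4 and -2.67 ± 0.10 in C57-mES (limma adjusted p at most 4.8e-17). Nt5e, the surface enzyme that makes adenosine from AMP, is a poor reference point, because its FVB-sFB arrays spread from 8.01 to 10.91. Without FVB-sFB arrays 3 and 4 its difference in sFB-protein-iPS was -0.04, against -1.39 with them.

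Supply of PRPP, the sugar used by both routes, was represented by 6 measured genes, of which 3 were called higher than in FVB-sFB in sFB-protein-iPS, 2 in E14-mES, 2 in GFPoct4 and 1 in C57-mES, and 0 lower in any, beside 11.7% to 13.1% of all genes called higher. In sFB-protein-iPS the counts of 3 higher and 0 lower were 1 and 0 with median centring, 1 and 0 by the mean of all probes of a gene, and 0 and 2 on the deposited log2 values, where Prps1 was at 0.58, Prpsap2 at 0.33 and Tkt at 0.22. Prps1, a PRPP synthetase on the X chromosome, rose relative to FVB-sFB by 1.46 ± 0.09 log2 in sFB-protein-iPS, 2.69 ± 0.09 in E14-mES, 2.34 ± 0.09 in GFPoct4 and 2.13 ± 0.09 in C57-mES (limma adjusted p at most 8.14e-14). Its group means were 11.53 in sFB-protein-iPS, 12.77 in E14-mES, 12.41 in GFPoct4, 12.20 in C57-mES and 10.08 in FVB-sFB. It was called lower in sFB-protein-iPS than in E14-mES (-1.24 ± 0.09, adjusted p = 1.81e-11), and this group order was not that of Hprt. Prpsap2, a protein that binds PRPP synthetase, lay below background on all FVB-sFB arrays and was at least 1.87-fold higher in sFB-protein-iPS, 3-fold in E14-mES and 3.07-fold in GFPoct4. Tkt, transketolase, differed from FVB-sFB by 1.07 ± 0.11 in sFB-protein-iPS (adjusted p = 7.52e-09), 0.12 ± 0.11 in E14-mES (0.396), 0.08 ± 0.11 in GFPoct4 (0.591) and 0.89 ± 0.11 in C57-mES (1.66e-07).

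One-carbon metabolism supplies formyl groups for the purine ring, and 15 of its genes were measured. Against FVB-sFB 6 were called higher and 1 lower in sFB-protein-iPS, 8 and 2 in E14-mES, 6 and 2 in GFPoct4, and 4 and 2 in C57-mES, or 40% to 66.7% of the list beside 22.8% to 24.6% of all genes. By the mean of all probes of a gene the counts in E14-mES were 5 and 1, and on the deposited log2 values those in sFB-protein-iPS were 3 and 2. Gldc, the glycine decarboxylase of the glycine cleavage system, rose by 5.17 ± 0.22 log2 in sFB-protein-iPS (35.9-fold), 5.53 ± 0.22 in E14-mES (46.2-fold), 4.36 ± 0.22 in GFPoct4 (20.6-fold) and 5.66 ± 0.22 in C57-mES (50.7-fold, limma adjusted p at most 1.92e-15 in all 4). Shmt1, the cytosolic serine hydroxymethyltransferase, lay below background on all FVB-sFB arrays and was at least 14-fold higher in sFB-protein-iPS, 10.4-fold in E14-mES, 8.02-fold in GFPoct4 and 12.4-fold in C57-mES. Aldh1l2, which oxidises formyl-tetrahydrofolate in mitochondria, went the other way, at -2.15 ± 0.09 in sFB-protein-iPS and -3.88 ± 0.09 in C57-mES, where 3 of 4 arrays lay above background. It was also called higher in sFB-protein-iPS than in C57-mES, by 1.73 ± 0.09 (adjusted p = 8.97e-14).

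Pyrimidine genes were described beside the purine ones. Of 18 measured, 8 were called higher and 2 lower than in FVB-sFB in sFB-protein-iPS, 8 and 2 in E14-mES, 9 and 2 in GFPoct4, and 9 and 2 in C57-mES, or 55.6% to 61.1% of the list beside 22.8% to 24.6% of all genes. In sFB-protein-iPS these counts were 5 and 1 by the mean of all probes of a gene and 4 and 4 on the deposited log2 values, which gave 5 and 3 in GFPoct4. Upp1, uridine phosphorylase, rose by 5.55 ± 0.09 log2 in sFB-protein-iPS (46.9-fold), 6.39 ± 0.09 in E14-mES (84-fold), 6.74 ± 0.09 in GFPoct4 (107-fold) and 6.10 ± 0.09 in C57-mES (68.6-fold). Thymidine kinase Tk1 and thymidylate synthase Tyms, which make thymidine nucleotides for DNA, were higher in all 4 groups on the probes used, Tk1 by 2.11 to 3.26 and Tyms by 1.84 to 2.75. By the mean of all probes Tk1 was at 0.96 in sFB-protein-iPS, no longer called, and Tyms at 0.67 to 0.92, with none called.

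Of 7 nucleoside transporters, 3 were called higher in each of the 4 pluripotent groups than in FVB-sFB, and 1 lower in each but E14-mES, where it was 0. That was 42.9% to 57.1% of the list, beside 22.8% to 24.6% of all genes. In sFB-protein-iPS the deposited log2 values called 1 higher and 1 lower, with Slc29a1 at 0.91 and Slc28a1 at 0.36, and Slc28a1 was at 0.98 without background correction and 0.96 with median centring. Slc29a1, the main equilibrative transporter, rose by 1.82 ± 0.09 log2 in sFB-protein-iPS and 1.93 ± 0.09 in C57-mES. Slc29a4, below background on all FVB-sFB arrays, was at least 5.47-fold higher in sFB-protein-iPS and at least 6.44-fold higher in C57-mES. Slc28a1, a concentrative transporter, was called lower in sFB-protein-iPS than in C57-mES, by -1.82 ± 0.10 (limma adjusted p = 8.23e-14).

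Genes of DNA replication and division moved in the same comparisons as Ppat, Gart and Adsl. Of 12 proliferation genes, 10 were called higher and 0 lower than in FVB-sFB in sFB-protein-iPS, 11 and 0 in E14-mES, 11 and 0 in GFPoct4 and 9 and 0 in C57-mES, beside 11.7% to 13.1% of all genes called higher. Their median log2 difference was 3.0, 3.04, 3.18 and 3.62 in that order, beside 0.00 to 0.03 over all genes. Mcm5, a subunit of the replicative helicase, rose by 4.71 ± 0.12 in sFB-protein-iPS (26.1-fold) and 4.37 ± 0.12 in C57-mES (20.7-fold). Mcm2 and Mcm6, from the same complex, rose by 3.65 ± 0.13 and 3.83 ± 0.15 in sFB-protein-iPS and by 3.94 ± 0.13 and 4.19 ± 0.15 in C57-mES. The part of growth rate in the de novo genes was not tested.

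Of 8 measured genes of the Myc network, most of whose proteins bind the E-box, 2 were called higher than in FVB-sFB in sFB-protein-iPS and C57-mES and 1 in E14-mES and GFPoct4, with 1 lower in each, or 25% to 37.5% of the list beside 22.8% to 24.6% of all genes. Mycl rose relative to FVB-sFB by 2.28 ± 0.18 log2 in sFB-protein-iPS, 2.27 ± 0.18 in E14-mES, 2.17 ± 0.18 in GFPoct4 and 2.01 ± 0.18 in C57-mES. Mxd4, a partner of Max that opposes Myc, was at least 6.05-fold lower in sFB-protein-iPS and 6.45-fold lower in C57-mES, and its differences were -2.52 in E14-mES and -2.49 in GFPoct4. Mnt, another such repressor, was below background in FVB-sFB and at least 2.08-fold higher in sFB-protein-iPS and 1.96-fold in C57-mES. Its call was lost in sFB-protein-iPS with median centring (0.86), on the deposited log2 values (0.3) and by the mean of its probes (0.61), and in C57-mES without background correction (0.99), on the deposited values (0.67) and by the mean of its probes (0.65). Myc itself differed by -0.10 ± 0.11 in sFB-protein-iPS (limma adjusted p = 0.490), -0.33 ± 0.11 in E14-mES (0.0118), -0.63 ± 0.11 in GFPoct4 (1.6e-05) and -0.55 ± 0.11 in C57-mES (0.00011), none of a size to be called.

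Hprt was then set against its neighbours on the X chromosome, the 5 measured genes on each side in the order of the RefSeq annotation. In E14-mES against C57-mES and in GFPoct4 against C57-mES, limma called 0 of the 10 neighbours. That is near the share of all genes called there, 7.3% and 7.92%. With median centring and on the deposited log2 values 1 of 10, Fam122b, was called in E14-mES, at 1.15 and 1.21. The differences ran from -0.28 to 0.91 in the first comparison and from -0.70 to 0.93 in the second, and Hprt stood at -6.40 and -4.29. In sFB-protein-iPS against C57-mES 1 of 10 was called, beside 4.47% of all genes. It was Phf6, a chromatin protein and the nearest measured gene on one side, at -1.26 ± 0.13 (limma adjusted p = 1.78e-08). By the mean of all probes 0 of 10 were called in that comparison, and on the deposited values 2, Phf6 and Ccdc160. At an unadjusted p under 0.05 the limma counts were 6 of 10 in sFB-protein-iPS, 3 of 10 in E14-mES and 5 of 10 in GFPoct4. The share of all genes at that threshold is not given. In C57-mES, Gpc4, Fam122c and Rtl8c lay above background on 0 of 4 arrays, and Usp26 and Plac1 on 2 of 4. A level below that of C57-mES could hardly show in these genes.

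Phf6 had 8.31 ± 0.10 in sFB-protein-iPS, 9.47 ± 0.38 in E14-mES, 9.39 ± 0.08 in GFPoct4, 9.58 ± 0.14 in C57-mES and 8.95 ± 0.10 in FVB-sFB (SD, n = 4 each). The mean of its probes gave -0.58 for sFB-protein-iPS against C57-mES, under the size for a call. Plac1, a placental gene and the nearest on the other side, had means of 6.33 to 6.65, and 2 of its 20 arrays lay above background. Phf6 was also lower in sFB-protein-iPS than in E14-mES (-1.16 ± 0.13) and GFPoct4 (-1.07 ± 0.13), which have low Hprt as well. By the mean of its probes these were -0.54 and -0.49, neither called, and without E14-mES replicate 4 the difference from E14-mES was -0.98.

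Relative to FVB-sFB, neighbours moved in both directions. Rtl8c was at least 7.62-fold lower in E14-mES, 7.57-fold in GFPoct4 and 7.59-fold in C57-mES, and it differed by -3.22 ± 0.13 log2 in sFB-protein-iPS, with 1 of 4 arrays above background. Fam122b rose by 1.45 ± 0.10 in sFB-protein-iPS, 2.70 ± 0.10 in E14-mES, 2.73 ± 0.10 in GFPoct4 and 1.79 ± 0.10 in C57-mES, and on the deposited log2 values it was at 0.49 in sFB-protein-iPS, not called. Gpc3, a heparan sulfate proteoglycan, spread from 6.93 to 9.99 over the FVB-sFB arrays, and without arrays 1 and 2 of that group its difference in E14-mES was 0.73, against 2.20 with them. Over the 608 other X chromosome genes the median difference lay between -0.02 and 0.03 in the 10 comparisons, beside 0.00 to 0.03 over all genes. Against C57-mES 3.62% of these genes were called in sFB-protein-iPS, 7.07% in E14-mES and 9.21% in GFPoct4, beside 4.47%, 7.3% and 7.92% of all genes.

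**Figure D4:**
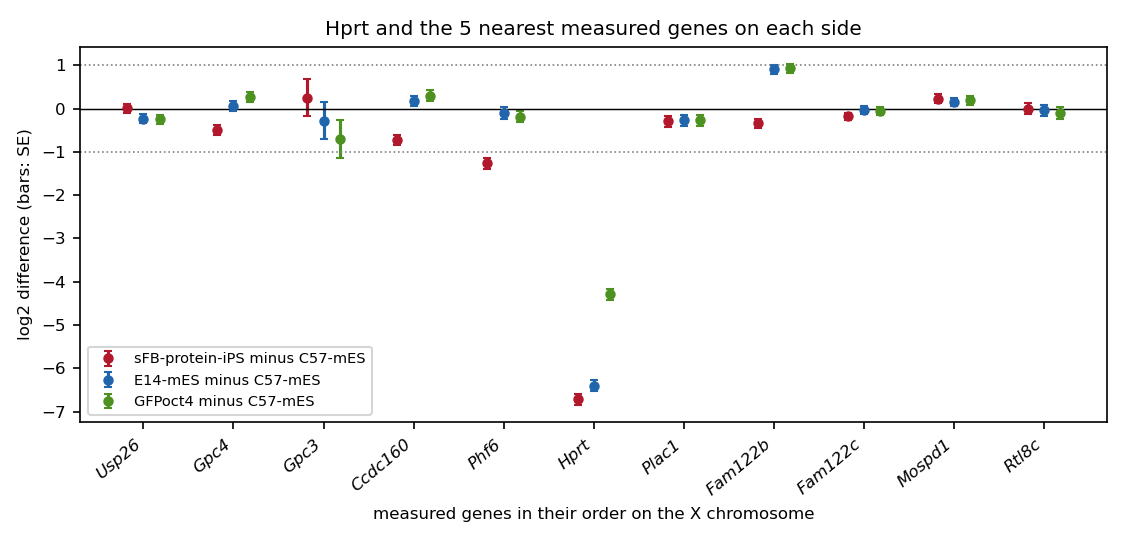
Log2 differences of Hprt and of the 5 measured genes on either side of it, in their order along the X chromosome (x axis, not to distance), for sFB-protein-iPS, E14-mES and GFPoct4, each against C57-mES. Error bars are the SE of the fit. Hprt lies at -6.72, -6.40 and -4.29, and the 10 neighbours between -1.26 and 0.93. Usp26, Gpc4, Plac1, Fam122c and Rtl8c lie near or below background in C57-mES.

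Of 10 other common reference genes, 3 were called higher and 2 lower than in FVB-sFB in each of the 4 pluripotent groups, or 50% of the list beside 22.8% to 24.6% of all genes. In sFB-protein-iPS these counts were 1 and 2 with median centring and 0 and 2 on the deposited log2 values, which gave 1 and 2 in GFPoct4 and in C57-mES. B2m, the light chain of MHC class I, differed by -2.70 ± 0.16 log2 in sFB-protein-iPS and -3.47 ± 0.16 in C57-mES, and Tfrc, the transferrin receptor, rose by 4.29 ± 0.16 in E14-mES and 1.93 ± 0.16 in C57-mES. Gapdh differed by -0.13 ± 0.08 in sFB-protein-iPS (limma adjusted p = 0.192), 0.28 ± 0.08 in E14-mES (0.00322), 0.29 ± 0.08 in GFPoct4 (0.00229) and 0.09 ± 0.08 in C57-mES (0.373). Gusb, a lysosomal glucuronidase, fell by 1.89 in sFB-protein-iPS and by 1.62 in C57-mES, and Actb differed by -0.77 to -0.96 in the 4 groups. Gapdh and Actb stand outside the rule for named genes and were chosen as the reference genes most readers would look for.

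The genes most like Hprt across the 20 arrays were named by the Pearson correlation with its brightest probe, among 5859 genes whose group means spanned at least 1 log2 unit. The 8 with the highest values were Thumpd1 (0.982), Bsdc1 (0.974), Lars2 (0.969), Aif1l (0.968), Nod1 (0.966), Nt5c3 (0.964), Twistnb (0.963) and Tiam2 (0.963). All were autosomal, on chromosomes 7, 4, 9, 2, 6, 6, 12 and 17 in that order. The arrays share 5 group means, so a gene high in C57-mES and FVB-sFB scores high by those means alone, and no p is given.

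Thumpd1, which takes part in acetylation of transfer RNA, had the widest span of the 8 between group means, 5.67 log2 units. Its means were 6.22 ± 0.22 in sFB-protein-iPS and 6.09 ± 0.16 in E14-mES, with no array above background, which makes it at least 30.2-fold and 32.4-fold below C57-mES. They were 7.42 ± 0.15 in GFPoct4, 11.76 ± 0.13 in C57-mES and 10.23 ± 0.15 in FVB-sFB (SD, n = 4 each). As for Hprt, GFPoct4 lay between the low and the high groups and C57-mES stood above FVB-sFB.

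Nod1, a sensor of bacterial peptidoglycan, had 6.80 ± 0.06 in sFB-protein-iPS, 7.48 ± 0.22 in E14-mES, 7.53 ± 0.18 in GFPoct4, 10.59 ± 0.04 in C57-mES and 10 ± 0.40 in FVB-sFB. Lars2, the mitochondrial leucyl-tRNA synthetase, had 6.44 ± 0.19, 6.99 ± 0.12, 7.31 ± 0.12, 9.02 ± 0.05 and 8.36 ± 0.14 in the same order of groups. Twistnb, a subunit of RNA polymerase I, had 6.55 ± 0.18, 6.92 ± 0.04, 7.26 ± 0.21, 9.18 ± 0.11 and 8.39 ± 0.13. In all 3 genes C57-mES was the highest group and sFB-protein-iPS the lowest, an order favoured by their choice for likeness to Hprt. In sFB-protein-iPS, Lars2 and Twistnb lay above background on 0 of 4 arrays and Nod1 on 1 of 4.

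Nt5c3 was the only gene among the 8 that also belonged to the nucleotide lists. It encodes a 5′-nucleotidase that prefers pyrimidine nucleotides, and its means were 8.13 ± 0.17 in sFB-protein-iPS, 8.37 ± 0.20 in E14-mES, 8.59 ± 0.15 in GFPoct4, 9.70 ± 0.07 in C57-mES and 9.40 ± 0.05 in FVB-sFB. Its differences from C57-mES were -1.58 in sFB-protein-iPS, -1.34 in E14-mES and -1.12 in GFPoct4, given with no test because likeness to Hprt chose it. Bsdc1, Aif1l and Tiam2 spanned 1.69 to 2.05 log2 units between group means, against 6.72 for Hprt.

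**Figure D5:**
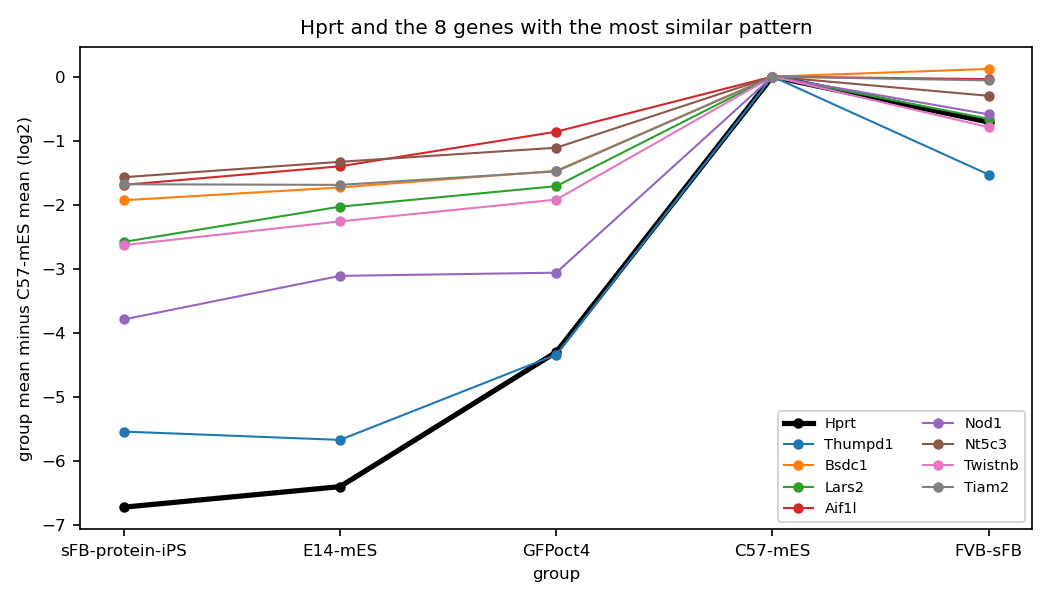
Group means of normalised log2 intensity minus the C57-mES mean of the same gene, for Hprt and the 8 genes most like it over 20 arrays. The 5 groups lie along the x axis, and lines join the values of 1 gene. Every gene is lower in sFB-protein-iPS, E14-mES and GFPoct4 than in C57-mES and FVB-sFB, and Hprt and Thumpd1 span the most, 6.72 and 5.67.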

How the data were processed

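Arrays were grouped by their titles. The authors deposited 2 tables: probe intensity on a linear scale, with no normalisation stated, and log2 values that matched the log2 of that intensity to within 5e-09, so the deposited log2 values are not normalised either. Per the submitters' processing notes, BeadStudio exported them, in a version not given. Of the per-sample columns 0 were left out. No detection p-values, slides or dates were used here, so neqc, which needs negative controls or detection p-values, was not run.

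From the intensities, R 4.3.3 and limma 3.58.1 gave normexp background correction (offset 50), quantile normalisation and log2. Of 25697 probes, 23978 carried 1 gene symbol and 1719 none, and the brightest probe stood for each of the 4777 genes with several. One linear model of the 5 groups was fitted to all 16593 genes, with moderated tests and Benjamini-Hochberg adjustment, and was tested on simulated data. Errors are SD for means and SE for differences. The number of arrays limits the precision. A bound sets the bright mean against, on each dim array, the higher of the probe and the background level, which here is the 95th percentile of the receptor probes and not the lowest detected signal.

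The members, the lists and the tests were chosen with earlier results of these data known. The rule for names took all members, 3 members of each list by size of change, the 5 measured neighbours a side and the 8 genes most like Hprt. Gapdh, Actb, Myc, Emb, Ak3 and Ak4 were chosen after their values were seen. Among the FVB-sFB arrays, 1 and 2 departed from their group mean together (r = 0.521 across genes), and so did 3 and 4 (0.386). Alternatives were no background correction, median centring, the deposited log2 values, a filter on dim probes, the mean of all probes, a replicate block, and leaving out each array or each FVB-sFB pair.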

Additional observations from a re-analysis of the deposited data

Results flagged for a closer look

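In 60 sets of 4 arrays (12 probes in 5 groups), 2 held an array far from the other 3 by Dixon's ratio, and chance alone flags about 1 in 20 sets. Aprt in GFPoct4 array 1 was at 13.04, against 13.37 to 13.42 on the other 3 arrays. The faintest Hprt probe in sFB-protein-iPS array 1 was at 5.70, against 5.97 to 6.0, all of them below background.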

How the results depend on the processing

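Arrays with the same replicate number were not treated as pairs: of 40 such pairs 5 had deviations that correlated above 0.1 (-0.33 to 0.246), and 6 of 20 arrays correlated best with their own number. With a replicate block, without background correction and with a filter on dim probes, which removed 0 of the 7 members, no member call changed. By the mean of all probes no member call changed. Leaving out FVB-sFB arrays 1 and 2, or 3 and 4, changed none either. The deposited log2 values, which are not normalised, shift all genes: their median difference was -0.41 for sFB-protein-iPS against FVB-sFB, -0.18 for GFPoct4 and -0.26 for C57-mES against FVB-sFB, where median centring gave 0.13 for the first, and -0.41, -0.25 and -0.18 for sFB-protein-iPS against E14-mES, GFPoct4 and C57-mES, with 0.17 and 0.24 for E14-mES against GFPoct4 and C57-mES. With those values 1 member was called in sFB-protein-iPS and 2 in GFPoct4 against FVB-sFB, with Ppat at 0.85 and Adsl at 0.65 in sFB-protein-iPS, and Paics at 0.80 and Adsl at 0.62 in GFPoct4. They called 3, 1 and 1 in sFB-protein-iPS against E14-mES, GFPoct4 and C57-mES, 2 in E14-mES against GFPoct4, and 1 each in E14-mES and GFPoct4 against C57-mES. Median centring called 2, 1 and 1 in sFB-protein-iPS against E14-mES, GFPoct4 and C57-mES. Over all genes the deposited table called 2895 in sFB-protein-iPS against E14-mES, where the normalised values called 1160, and 1165 against C57-mES in place of 742.

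Reversals touched only differences that were not called. Against FVB-sFB, Atic in sFB-protein-iPS was -0.13 with median centring and -0.59 on the deposited table, and in GFPoct4 -0.03, -0.34 and, by the mean of its probes, -0.02. On the deposited table Paics in sFB-protein-iPS was -0.36 and Aprt in GFPoct4 -0.07. In sFB-protein-iPS against E14-mES, Aprt was -0.26 on the deposited table and Atic 0.20 by the mean of its probes. In sFB-protein-iPS against GFPoct4, median centring and the deposited table gave Ppat -0.29 and -0.43, and Atic -0.10 and -0.25. They gave Aprt -0.10 and -0.34 in sFB-protein-iPS against C57-mES. In E14-mES against GFPoct4 they gave Aprt 0.18 and 0.34, and Paics 0.09 and 0.25.

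With 1 array left out, 0 to 1 members were called in sFB-protein-iPS against GFPoct4, and every other count of calls stayed within 1.5 times. Signs turned for Ppat (-0.05 to 0.10) and Gart (-0.06 to 0.03) in that comparison, for Paics in sFB-protein-iPS against C57-mES (-0.16 to 0.01), and for Paics (-0.13 to 0.11) and Aprt (-0.10 to 0.18) in E14-mES against GFPoct4. Beyond the shift of all genes, the cause was not tested. By the mean of its 3 probes Hprt differed by -3.24 in sFB-protein-iPS, -3.05 in E14-mES and -2.05 in GFPoct4 against FVB-sFB, a mean that takes in the probes below background. Low signal limits Hprt in sFB-protein-iPS and E14-mES, and Paics in all groups.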
